A study of Canis lupus familiaris with 30 samples.

Results

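The ligands, receptors and 1 enzyme of the immune checkpoint pathways were described across 30 canine thyroid carcinomas (TC). They were chosen by gene symbol from the table of raw read counts, and all 10 genes sought were found among its 30424 genes, of which 15780 carried a symbol. They comprise the ligands *CD274* (PD-L1), *CD80*, *CD276* (B7-H3) and *VTCN1* (B7-H4), the receptors *PDCD1* (PD-1), *CTLA4*, *LAG3*, *HAVCR2* (TIM-3) and *TIGIT*, and the tryptophan-degrading enzyme *IDO1*. The study sequenced RNA of 30 primary, spontaneous thyroid tumors of pet dogs, described as 25 follicular and 5 medullary carcinomas. The sample labels place all 30 in a single group of thyroid tumor tissue and do not say which tumor is which type, so no comparison between the types was made. Dog age, breed and treatment were not taken into account. With 1 library per tumor, the spread reported holds differences between dogs together with those of tissue sampling, library and read counting.

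Checkpoint molecules restrain T cells. PD-1, CTLA-4, LAG-3, TIM-3 and TIGIT are receptors that T cells carry after activation, and several are also found on natural killer cells, regulatory T cells or, for TIM-3, macrophages and dendritic cells. PD-L1 and its relative PD-L2 engage PD-1, while CD80 and CD86 on antigen-presenting cells engage CD28, which promotes activation, or CTLA-4, which competes for the same ligands. B7-H3 and B7-H4 are B7-family proteins often found on carcinoma cells, and IDO1 deprives T cells of tryptophan. Several of these pathways are targets of antibody therapy.

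Between 12288945 and 45148677 reads were counted per tumor (median 25569678), and values below are normalised read counts, the count divided by the size factor of the tumor. Size factors ranged from 0.279 in TC538, the shallowest library, to 1.62. Hierarchical clustering on 747 variable genes, leaving out the checkpoint and marker genes, split the tumors into a larger branch of 25 and a smaller branch of 5 (TC1020, TC1473, TC1601, TC1936 and TC2289). These branches were derived from expression and were not matched to histologic type tumor by tumor. The text of the study names TC1020, TC1601, TC1936 and TC2289, all of the smaller branch, as medullary carcinomas. The C cell genes *CALCA*, *CALCB* and *SCG2* were highest in TC1936, TC1601 and TC2289, in this order. Relations across tumors were tested within the larger branch, and levels are given over all 30. Thyroid follicular markers were present at a summed median of 403000 normalised counts, but at only 175 in the lowest tumor, and *TG* (thyroglobulin) was lowest in TC1088 at 12.0. TC1088 also had the highest level of the chemokine gene *CCL19*, 7832 against a median of 12.5, a gene named after its values were seen. T cell markers had a summed level of 182 to 2200 with a median of 406. This sum rests largely on *CD5*, with a median of 260 and 1834 in TC2289, the tumor of the highest sum. *CD3E* and *CD2* were highest in TC1473. *CD3E*, a chain of the T cell receptor complex, had a median of 21.5 (7.0 to 227), the cytotoxic marker *CD8A* a median of 8.63, and the cytolytic protein gene *PRF1* a median of 3.47 with 0 counts in 4 tumors. Macrophage markers had a median over 9 genes of 829 and a summed level of 3270 to 18900. In bulk tissue, fewer cells of a type and less RNA per cell cannot be told apart.

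Among all genes that passed the filter of at least 10 counts in at least 5 tumors (18711 over 30 tumors, 18106 within the larger branch), the median normalised count was 238 and the median SD of log2 levels between tumors was 0.95. All 10 checkpoint genes passed both filters. Read counts were not divided by transcript length, so levels are compared between tumors and not between genes.

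**Figure D1:**
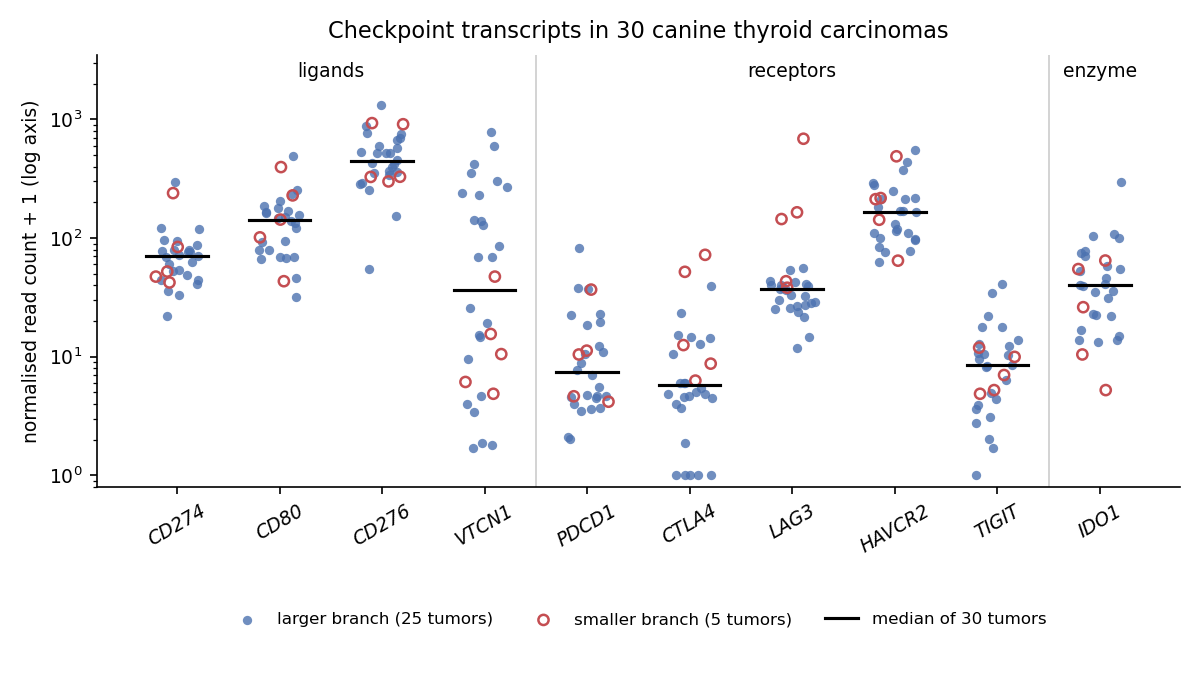
Normalised read count plus 1 (log axis) of the 10 checkpoint genes in 30 tumors. Filled points are the 25 tumors of the larger branch, open points the 5 tumors of the smaller branch and bars the median of all 30. *VTCN1* spans the range from 0.703 to 783, while 3 open points stand above all filled points for *LAG3*.

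Among the ligands, *CD274* was detected in every tumor. Its normalised count ranged from 21.0 in TC812 to 295 in TC1994, with a median of 69.2. TC1994 and TC1473 (238) stood apart from the other 28 tumors, which reached 120 at most. The SD of its log2 level was 0.77, which was larger than that of 32.9% of all genes passing the filter, so *CD274* varied less between tumors than most genes. *PDCD1LG2* (PD-L2), which lies next to *CD274* in the dog genome, had a median of 37.7 and was likewise highest in TC1994 (331) and TC1473 (166), and lowest in TC812 (11.0), the tumor with the lowest *CD274*. Within the larger branch, the levels of these genes were related (Spearman's rho = 0.62, permutation p = 0.00147; Pearson's r = 0.75, permutation p = 0.0001), and r was 0.44 without the 2 tumors farthest from the *CD274* median. After adjustment over all 18105 genes, the relation missed the threshold (adjusted p = 0.0676).

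*CD80* was also present in every tumor, from 31.1 in TC812 to 495 in TC538, with a median of 141. The value of TC538 rested on 138 reads and its size factor of 0.279. After it, the highest values were 396 in TC1473 (435 reads) and 254 in TC815 (312 reads). *CD86*, its partner as a ligand of CD28 and CTLA-4, had a median of 323 and was highest in TC1473 (1420), TC1994 (1010) and TC538 (878). *CD80* and *CD86* rose together across the 25 tumors (rho = 0.68, adjusted permutation p = 0.00524; r = 0.70, permutation p = 0.00014, and 0.65 without the 2 farthest tumors). For comparison, 11.2% of genes were positively and 11.0% negatively correlated with *CD80* at this threshold. *PDCD1LG2* was related to *CD80* as well (rho = 0.63, adjusted permutation p = 0.0124; r = 0.58, permutation p = 0.00252).

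**Figure D2:**
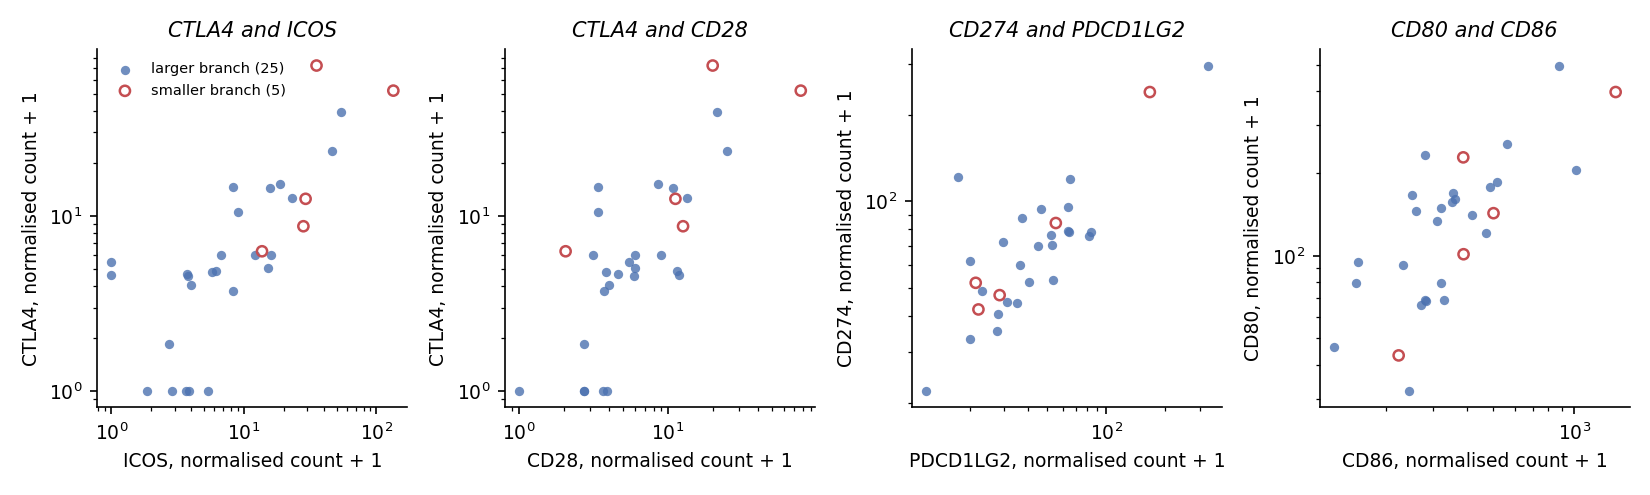
Normalised read count plus 1 (log axes) of *CTLA4* against *ICOS* and *CD28*, *CD274* against *PDCD1LG2*, and *CD80* against *CD86* in 30 tumors. Filled points are tumors of the larger branch and open points those of the smaller branch. The 4 tumors highest in *CTLA4* are also the 4 highest in *ICOS* and in *CD28*.

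*CD276* was at 100 normalised counts or more in 29 of 30 tumors. It ranged from 53.8 in TC538 to 1310 in TC1869, with a median of 444 and an SD of 0.87 on the log2 scale. The low value of TC538 rested on 15 reads, and the next lowest tumor, TC1593, was at 153. *VTCN1* behaved differently. It ranged from 0.703 in TC22, where 1 read was counted, to 783 in TC1953, where 875 were, with a median of 35.6. It was at 100 or more in 11 tumors and below 10 in 10 others, and the SD of its log2 level, 2.76, was larger than that of 97.6% of genes. The 5 tumors of the smaller branch lay between 3.87 and 46.3, all below the 11 highest tumors.

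The receptors *PDCD1*, *CTLA4* and *TIGIT* were at the lower limit of what this depth can measure. For *PDCD1*, the raw count ranged from 1 to 87 with a median of 6, and reached 10 in 10 of 30 tumors. Its normalised count had a median of 6.40. TC1744 was highest at 81.5, followed by TC67 (37.2), TC815 (35.9) and TC1020 (35.8). For *TIGIT*, the median was 7.44 and TC1744 was again the highest tumor (40.3), followed by TC1994 (33.7). TC538 had 0 *TIGIT* reads, which allows a normalised count of up to 10.8 (3 counts, counting error only) and so does not place this tumor below the others.

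*CTLA4* had a median of 4.73 and was highest in TC1601 (71.2), TC1473 (50.9), TC815 (38.3) and TC1994 (22.5). It had 0 reads in 5 tumors (TC640, TC1744, TC1869, TC1953 and TC2110), each with a limit between 2.61 and 2.88 normalised counts. TC1744, the tumor highest in *PDCD1* and *TIGIT*, was therefore among those without a *CTLA4* read. *CTLA4* lies between *CD28* and *ICOS*, genes of the costimulatory receptors of the same family. *ICOS* had a median of 7.26 and was highest in TC1473 (133), TC815 (53.0), TC1994 (44.9) and TC1601 (34.3). *CD28* had a median of 4.70 and was highest in the same 4 tumors, from 18.9 in TC1601 to 76.4 in TC1473. Of all genes with a symbol, *ICOS* was the most alike to *CTLA4* within the larger branch (rho = 0.78, permutation p = 1e-05, the smallest that 100000 permutations can give; r = 0.70, permutation p = 0.00012, and 0.62 without the 2 farthest tumors). With 18105 genes tested, the adjusted p was 0.181. *CD28* did not pass the count filter within the larger branch, and its unadjusted relation to *CTLA4* was rho = 0.63 (permutation p = 0.00096) and r = 0.73 (permutation p = 5e-05).

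*LAG3* lay in a narrow range in most tumors and far above it in a few. The median was 36.4, and the 25 tumors of the larger branch lay between 10.8 (TC538, 3 reads) and 54.8 (TC640). Above them stood TC1020 at 687, from 710 reads, TC1601 at 164 and TC1473 at 144, all of the smaller branch, whose other tumors were at 42.3 (TC1936) and 37.2 (TC2289). In TC1020, *CD3E* was at 69.6, the fifth highest of 30. *LAG3* and the T cell coreceptor *CD4*, its neighbour in the genome, were at rho = 0.19 within the larger branch.

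*HAVCR2* was detected in every tumor, from 61.8 in TC1744 to 556 in TC627, with a median of 166. TC2289 (488), TC1164 (437) and TC1593 (375) followed TC627. The SD of its log2 level was 0.86, close to that of *CD276*. *IDO1* ranged from 4.23 in TC1936 to 298 in TC538, with a median of 39.0. TC538 stood apart from the next tumor, TC1994 at 107, and its value rested on 83 reads. *IDO2*, its paralog close by in the genome, had a median of 70.7 and was highest in TC2089 (546). Its relation to *IDO1* missed the threshold (rho = 0.32, adjusted permutation p = 0.244; r = 0.42, permutation p = 0.0391, and 0.25 without the 2 farthest tumors). *TDO2*, the gene of an unrelated enzyme with the same reaction, had a median of 4.62.

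Whether the checkpoint genes followed the cell content of the tumors was asked with 5 indices, each the mean log2 level of a list of marker genes (7 of T cells, 9 of macrophages, 10 of the interferon gamma response, 10 of fibroblasts and 6 of epithelium). In the T cell index, *CD3D*, *CD3G* and *UBASH3A* had median normalised counts of only 6.77, 6.63 and 4.66. Low counts therefore limit this index as well as the receptors. The slope of each gene on an index, in log2 units per doubling of the markers, was tested with edgeR over all genes in the 25 tumors of the larger branch. In these 50 tests, 0 checkpoint genes passed an adjusted p of 0.05, and 10 had an unadjusted p below 0.05, namely 2, 3, 3, 0 and 2 on the T cell, macrophage, interferon gamma response, fibroblast and epithelial indices. In the same order, 6.92%, 8.48%, 31.9%, 9.87% and 12.2% of all genes had one. DESeq2 called 2, *CTLA4* on the T cell index and *VTCN1* on the epithelial index. Over all genes, edgeR called 0.425% as rising and 0.00552% as falling with the T cell index, 0.729% and 0.271% with the macrophage index, 4.3% and 13.0% with the interferon gamma response index, 0.459% and 0.553% with the fibroblast index, and 0.376% and 0.58% with the epithelial index.

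**Figure D3:**
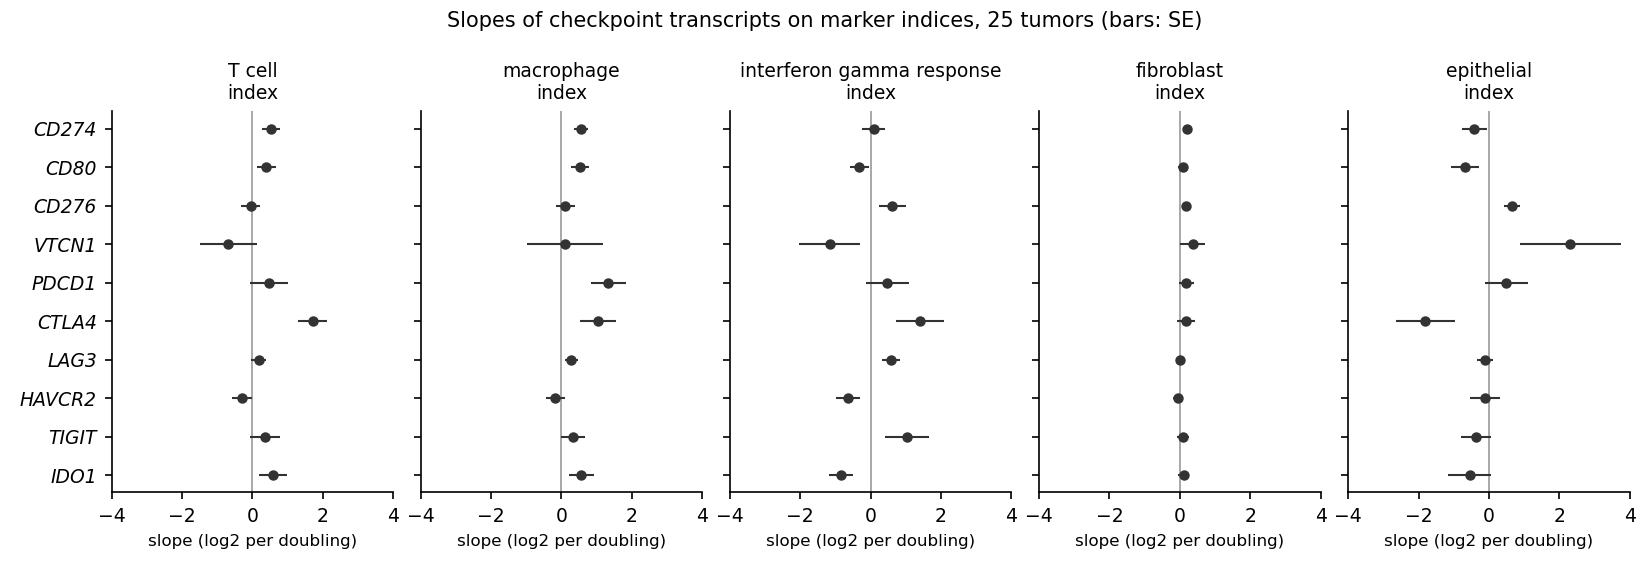
Slope of each checkpoint gene on 5 marker indices (log2 change per doubling of the markers) in the 25 tumors of the larger branch, from edgeR. Points are slopes and bars their SE. *CTLA4* on the T cell index has the slope farthest from 0 relative to its SE (1.71 ± 0.42), and no slope passed an adjusted p of 0.05.

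On the T cell index, *CTLA4* had a slope of 1.71 ± 0.42 (SE, n = 25; unadjusted p = 0.000364, edgeR adjusted p = 0.065), just short of the threshold. The edgeR or DESeq2 adjusted p ranged from 0.000207 over all 30 tumors to 0.241 with the macrophage index as a covariate. DESeq2 gave a slope of 1.70 with an adjusted p of 0.0381, where it called 0.983% of all genes as rising. *ICOS* passed the threshold with a similar slope of 1.66 ± 0.34 (edgeR adjusted p = 0.0228). This call was lost without TC1088 (slope 1.69, edgeR adjusted p = 0.0849) and with the macrophage index as a covariate (slope 1.65, edgeR adjusted p = 0.116). The other receptors had slopes of 0.47 ± 0.54 for *PDCD1*, 0.36 ± 0.43 for *TIGIT*, 0.18 ± 0.21 for *LAG3* and -0.30 ± 0.28 for *HAVCR2*, with edgeR adjusted p values of 0.939 to 0.948. For *LAG3*, the slope rose to 1.12 over all 30 tumors (edgeR adjusted p = 0.000714), where 9.43% of all genes were called as rising, and was 0.13 ± 0.28 once the branch was a covariate (edgeR adjusted p = 0.891). The 3 tumors with the highest *LAG3* were not part of the larger branch and entered only the fits over all 30.

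The ligands of antigen-presenting cells were set against the macrophage index. *PDCD1LG2* rose by 1.33 ± 0.17 per doubling of the macrophage markers (edgeR adjusted p = 8.51e-05) and *CD86* by 0.91 ± 0.15 (edgeR adjusted p = 0.000866). Neither call was lost under any of 11 alternative settings. *CD274* had a slope of 0.55 ± 0.19 (edgeR adjusted p = 0.251) and *CD80* of 0.52 ± 0.26 (edgeR adjusted p = 0.615). The difference between the slopes of *CD274* and *PDCD1LG2* was not tested. *PDCD1* had a steep but imprecise slope on the same index, 1.33 ± 0.50 (edgeR adjusted p = 0.332).

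Of the remaining slopes, *CD276* had 0.66 ± 0.23 on the epithelial index (edgeR adjusted p = 0.188) and 0.19 ± 0.13 on the fibroblast index (edgeR adjusted p = 0.586). Its rho with these indices was 0.58 and 0.57. By single marker, *CD276* was positively correlated at an adjusted permutation p of 0.05 with 5 of 10 fibroblast and 4 of 9 macrophage markers. The same held for 3 of 6 endothelial, 2 of 6 epithelial and 2 of 10 interferon gamma response markers. It also held for 1 of 3 C cell, 1 of 7 thyroid follicular and 1 of 6 T cell markers. Of all 18105 genes, 2116 were positively correlated with *CD276*, and 24.1% were called in either direction. *VTCN1* had 2.31 ± 1.44 on the epithelial index (edgeR adjusted p = 0.544). DESeq2 gave *VTCN1* a slope of 2.37 with an adjusted p of 0.0339, where it called 1.3% of all genes as rising. *IDO1*, which interferon gamma is known to induce, had a slope of -0.84 ± 0.35 on the interferon gamma response index (edgeR adjusted p = 0.097), but -0.01 without TC538 (edgeR adjusted p = 0.994) and 0.68 with the first principal component as a covariate (edgeR adjusted p = 0.558). That index was inversely related to the first component, described next (rho = -0.44).

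The first principal component of the larger branch, computed on 17972 genes without the checkpoint and marker genes, held 20.8% of the variance, and its score was 3.39 SD in TC538, far above all other tumors. It was inversely related to the log2 total count (rho = -0.55). The sign of the score was set so that *HAVCR2* rose with it, so only directions relative to *HAVCR2* carry information. *HAVCR2* (rho = 0.82), *CD80* (0.63) and *IDO1* (0.59) were high where the score was high and *CD276* (-0.72) was low. These 4 genes passed the test of the slope on the score, by 0.73 ± 0.17 log2 units per SD for *HAVCR2* (edgeR adjusted p = 0.000879), 0.56 ± 0.12 for *CD80* (edgeR adjusted p = 0.000376), 0.84 ± 0.15 for *IDO1* (edgeR adjusted p = 5.26e-05) and -0.74 ± 0.13 for *CD276* (edgeR adjusted p = 2.65e-05). The background is high, since 27.3% of all genes rose and 24.9% fell with this score, so 3 rising and 1 falling of 10 checkpoint genes is close to what genes at large showed. Without TC538 all 4 kept their direction and call, and *PDCD1* was called as well (-1.13 ± 0.43, edgeR adjusted p = 0.0377, against -0.33 and 0.347 with it), where 20.8% of all genes fell. By rank, the relation of *PDCD1* to the score was weak without TC538 (rho = -0.23). Its highest tumor, TC1744, had a low score (-1.1).

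**Figure D4:**
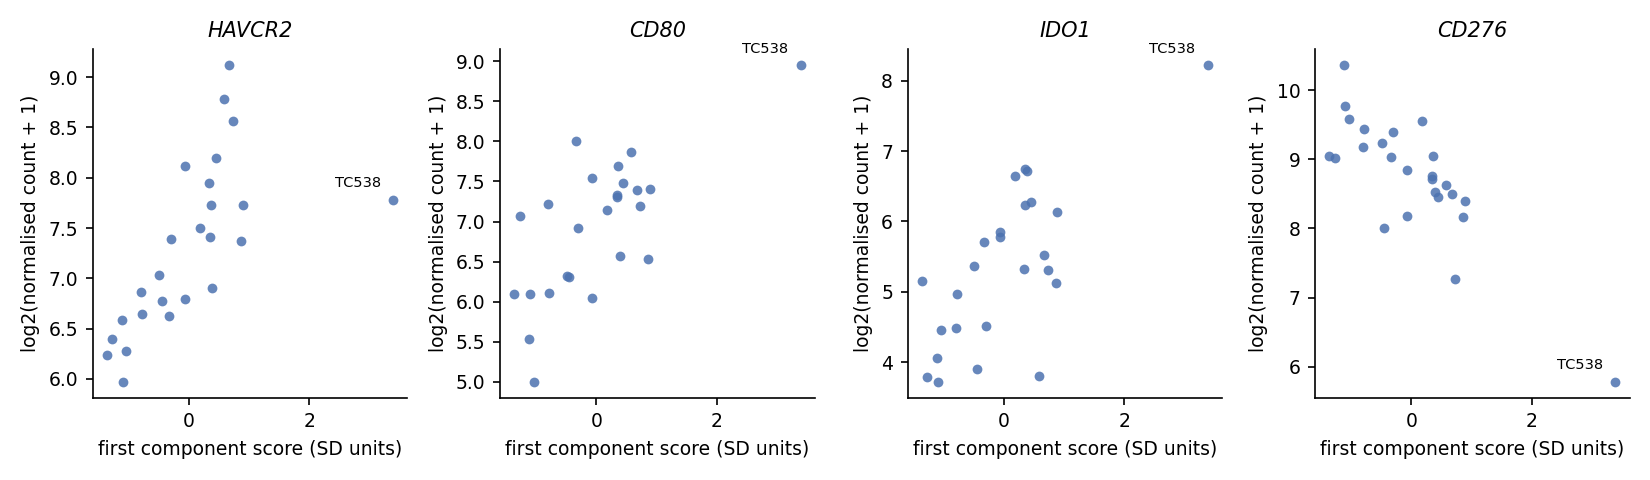
Level, as log2(normalised count + 1), of *HAVCR2*, *CD80*, *IDO1* and *CD276* against the score of the first principal component in SD units, in the 25 tumors of the larger branch. TC538 lies at a score of 3.39, apart from the other 24 tumors, and rho without it is 0.83, 0.58, 0.54 and -0.69 in the same order.

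Among the 45 pairs of checkpoint genes, 3 passed an adjusted p of 0.05 and 11 an unadjusted one. All 3 lie among *HAVCR2*, *CD276*, *IDO1* and *CD80*, which were correlated with 33.8%, 24.1%, 22.3% and 22.3% of all genes at this threshold, so 3 calls do not stand above the background. *HAVCR2* and *CD80* had the closest relation (rho = 0.72, adjusted permutation p = 0.00234; r = 0.63, permutation p = 0.00074, also 0.63 without the 2 farthest tumors). *HAVCR2* and *CD276* were inversely related (rho = -0.52, adjusted permutation p = 0.0376; r = -0.45, permutation p = 0.0223, and -0.51 without the 2 farthest), and this call was lost without TC538 (rho = -0.50, adjusted permutation p = 0.0736). *IDO1* and *CD80* were positively related (rho = 0.51, adjusted permutation p = 0.0484; r = 0.54, permutation p = 0.00494), but r was 0.34 (permutation p = 0.112) without TC538 and TC1744, where it did not hold. Its call was also lost without TC538 alone (rho = 0.45, adjusted permutation p = 0.119), without TC1088 (adjusted permutation p = 0.0527) and with TMM-scaled counts (adjusted permutation p = 0.0619). *CD274* and *CD80* missed the threshold at rho = 0.61 (adjusted permutation p = 0.0687; r = 0.61, permutation p = 0.00134, and 0.51 without the 2 farthest).

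With the first component removed from the ranks, rho was 0.45 for *HAVCR2* and *CD80* (unadjusted permutation p = 0.0247) and 0.48 for *CD274* and *CD80* (unadjusted permutation p = 0.0148). It was 0.18 for *HAVCR2* and *CD276* (unadjusted permutation p = 0.391), opposite in sign to the value as measured. The receptors *PDCD1*, *CTLA4*, *LAG3* and *TIGIT* were weakly related to each other, with rho between 0.14 (*PDCD1* with *CTLA4*, and *PDCD1* with *TIGIT*) and 0.28 (*CTLA4* with *LAG3*) and no pair past an unadjusted permutation p of 0.05, and *PDCD1* and its ligand *CD274* were at -0.03.

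**Figure D5:**
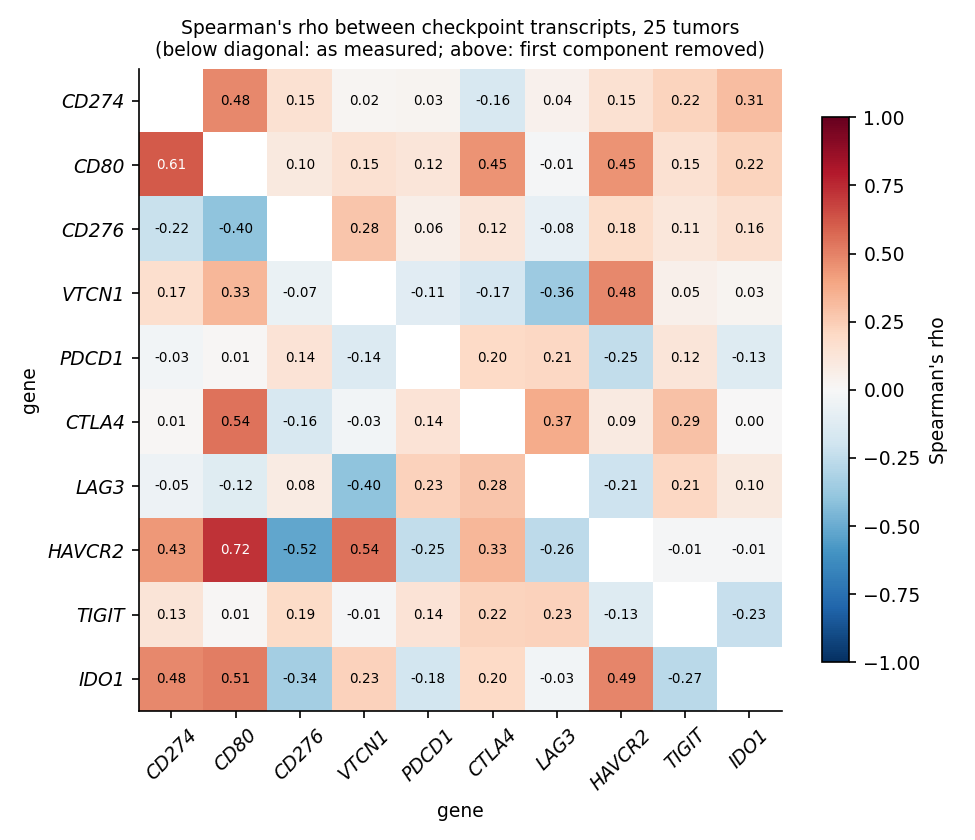
Spearman's rho between the 10 checkpoint genes in the 25 tumors of the larger branch, as measured below the diagonal and with the first principal component removed above it. The strongest measured value is 0.72 (*HAVCR2* with *CD80*), which is 0.45 above the diagonal.

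The genes most alike to each checkpoint gene were sought among 18105 genes. Beside the shares given for *HAVCR2*, *CD276*, *IDO1* and *CD80*, *CD274* was correlated with 1.25% of them at an adjusted p of 0.05. For *PDCD1*, *CTLA4*, *LAG3*, *TIGIT* and *VTCN1*, 0 genes passed in the permutation test, while 4.13%, 8.68%, 5.58%, 4.96% and 14.1% had an unadjusted p below 0.05. Of these 5, the alternatives gave calls for *CTLA4* alone, 5 genes over all 30 tumors. The 227 genes called for *CD274* fell to 0 with TMM-scaled counts and to 17 without TC538, and rose to 658 without TC1088 and to 1202 over all 30 tumors. Without TC538, the count fell from 4357 to 2507 for *CD276*, from 4034 to 1866 for *IDO1* and from 4033 to 2673 for *CD80*.

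The leading genes were *MRPL47*, which encodes a mitochondrial ribosomal protein, the kinase gene *MAPK6* and *THUMPD2* for *HAVCR2* (rho = 0.90 each), *SEPTIN9* (0.89), which encodes a cytoskeletal GTPase, and the proteasome subunit gene *PSMB1* (0.86) for *CD276*, and *C19H4orf33* (0.87), the integrin adhesion gene *FERMT2* (0.84) and *PGAP1* (0.83) for *IDO1*. They were *OSBPL11* (0.88), *PLEKHA3* (0.88) and *HAVCR1* (0.87) for *CD80*, and *NYAP2* (0.79), *PRSS12* (0.76) and *SPATA6* (0.74) for *CD274*. Pearson's r of these 14 relations was 0.63 to 0.90, and 0.71 to 0.87 without the 2 farthest tumors. None of the 14 is a gene of the T cell or macrophage lists. These lists supplied only 6 and 9 of the genes tested, so their absence carries little information. The genome neighbour *MED7* of *HAVCR2* was at rho = 0.80 and its paralog *HAVCR1* on the other side at 0.68. Of 9 macrophage markers, 0 were positively and 2 negatively correlated with *HAVCR2* at an adjusted permutation p of 0.05, with a median rho of -0.33. Of all 18105 genes, 3185 were positively and 2941 negatively correlated with *HAVCR2*, so counts this small among 9 markers do not stand apart from the background. *MED7* was chosen after its values were seen.

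Of the partner genes, *NECTIN2*, a ligand of TIGIT and CD226 that ranged from 545 to 9010 with a median of 3160, was positively related to *CD276* (rho = 0.64, adjusted permutation p = 0.0102; r = 0.73, permutation p = 6e-05) and inversely to *HAVCR2* (rho = -0.62, adjusted permutation p = 0.00716; r = -0.53, permutation p = 0.00607) and *IDO1* (rho = -0.60, adjusted permutation p = 0.0194; r = -0.65, permutation p = 0.00052). *NECTIN2* itself fell by 0.66 ± 0.08 per SD of the first component (edgeR adjusted p = 2.98e-07). *PVR*, the other main ligand of TIGIT, had a median of 480 and a lowest value of 21.9, in TC1088. *LGALS9*, which encodes a ligand of TIM-3, had a median of 677, and *FGL1*, which encodes a ligand of LAG-3, of 197. Of the receptors that share ligands with TIGIT, *CD226* had a median of 17.0 and *CD96* of 3.83. *NECTIN2*, *PVR*, *LGALS9* and *FGL1* were measured in every tumor. *ICOSLG* and *CEACAM1* could not be matched to a single gene by symbol.

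Of a wider list of 44 genes of costimulation, coinhibition, tryptophan breakdown and adenosine signaling, 39 were matched by symbol and 33 passed the filter in the larger branch. *ICOS* was the 1 gene of the 33 that rose with the T cell index, and 0 fell. The median slope was 0.47 against 0.01 over all genes, of which 0.425% rose and 0.00552% fell. With the macrophage index 5 rose and 0 fell, where 0.729% of all genes rose and 0.271% fell. Among the 5 were *VSIG4*, a macrophage complement receptor of the B7 family (1.05 ± 0.13, edgeR adjusted p = 5.16e-05), *CD48* (1.09 ± 0.20, edgeR adjusted p = 0.00295) and *KYNU*, a kynurenine pathway enzyme downstream of IDO1 (1.36 ± 0.31, edgeR adjusted p = 0.0244). With the interferon gamma response index 4 rose (*CD40*, *CD200*, *NECTIN2* and *CD27*) and *KMO*, another kynurenine pathway enzyme, fell by 1.65 ± 0.32 (edgeR adjusted p = 0.00125), where 4.3% of all genes rose and 13.0% fell. Without TC538, 1 of the 33 rose (*CD40*) and 0 fell, and with the first component as a covariate 0 passed in edgeR, with 12 at an unadjusted p below 0.05. Calls over all genes went from 3133 to 17 and 0 under the same settings. On the fibroblast and epithelial indices, 0 of the 33 passed in edgeR, with 5 and 4 at an unadjusted p below 0.05 beside 9.87% and 12.2% of all genes, and DESeq2 called 1 and 0. With the first component 10 rose and 5 fell, beside 27.3% and 24.9% of all genes. *VSIG4*, *CD48*, *KYNU*, *KMO*, *CD40*, *CD200* and *CD27* were named after their values were seen.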

How the data were processed

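RNA of 30 primary canine thyroid tumors was extracted with TRIzol, depleted of ribosomal RNA and sequenced as paired-end reads. STAR was used by the authors for alignment (CanFam3.1), and raw counts per Ensembl gene were deposited; which strand setting was counted is not given in the sources used here, so overlapping genes may share reads. There were 0 columns of no tumor. Genes were taken by the symbol in the table, and neighbours by gene order in the UU_Cfam_GSD_1.0 assembly, from which no coordinates were used. No sequences were printed.

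Levels are log2(normalised count + 1), with median-of-ratios size factors over the 15611 genes counted in all 30 tumors. The larger branch came from Ward clustering of genes with a mean log2 level above 2 and a variance above 6. Slopes on indices were tested with edgeR 4.0.16 (TMM, quasi-likelihood) in R 4.3.3 with Benjamini-Hochberg adjustment over all genes, index genes left out, and with DESeq2 1.42.0 as an alternative. Correlations used 100000 two-sided permutations, adjusted over all genes; a pair has the larger adjusted p of its 2 scans. Python 3.11.15, numpy 2.4.6, scipy 1.17.1, pandas 2.3.3 and matplotlib 3.10.9 were used. Tests were tested on simulated data. Reads were not counted by molecular identifiers, so limits from a count of 0 (3 counts) cover counting error only.

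The members and gene lists were chosen with earlier results of these data known. Named genes are the 10 members, for each the 3 genes of highest rho past an adjusted p of 0.05, 14 partner genes, and the genes of the wider list with the 3 largest slopes in each direction on the T cell index. The result of 1 named gene is not reported here. Alternatives were other normalizations, count filters, all 30 tumors with and without the branch, covariates, and leaving out TC1088 or TC538. The first component, its use as a covariate and the fit on it without TC538 were added after seeing the data.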

Additional observations from a re-analysis of the deposited data

How the results depend on the processing

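No paired analysis was possible because the labels put all tumors in 1 group. Median levels of the 10 checkpoint genes stayed within 1 SD with TMM-scaled counts and in the larger branch alone, though that of VTCN1 moved from 35.6 to 68.8 in the larger branch. The number of genes called (either direction) changed by over 1.5 times as follows, and the cause was not tested. On the T cell index it was 78, and 213 with DESeq2, 344 with no count filter, 26 with the stricter filter, 2186 over all 30 tumors, 178 with the branch as a covariate, 8 without TC1088, 24 with the first component and 10 with the macrophage index as a covariate, and 134 with CD3D, CD3E and CD3G alone. On the macrophage index it was 181, and 324 with DESeq2, 468 with no filter, 452 over 30 tumors and 83 with the T cell index as a covariate. On the interferon gamma response index it was 3133, and 492 with the log2 total count as a covariate, 17 without TC538 and 0 with the first component as a covariate. On the fibroblast index it was 183, and 364 with DESeq2, 568 with no filter, 395 over 30 tumors and 104 without TC1088. On the epithelial index it was 173, and 567 with DESeq2, 289 over 30 tumors and 373 with the branch as a covariate. Of pairs of checkpoint genes 3 were called, 5 over 30 tumors and 1 without TC538. Signs were followed for a selected set of slopes and pairs, not for all. In that set they turned for HAVCR2 on the T cell index over 30 tumors (0.03). With the first component taken out, they turned for IDO1 on the interferon gamma response index (0.68), HAVCR2 with CD276 (0.18) and HAVCR2 with IDO1 (-0.01). Outside that set, some slopes also differed in sign between alternatives. Examples are CD80 on the interferon gamma response index (-0.363 to 1.051) and VTCN1 on the macrophage index (-0.5 to 0.84). CTLA4 and ICOS could not be fitted under the stricter filter, which they did not pass. Depth limits PDCD1, CTLA4 and TIGIT, whose median raw counts were 6, 4.5 and 7.5.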

Other observations

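In the 5 tumors of the smaller branch, *CD274* ranged from 41.2 to 238 normalised counts, *PDCD1* from 3.17 to 35.8, *CTLA4* from 5.29 to 71.2, *LAG3* from 37.2 to 687, *HAVCR2* from 63.5 to 488, *TIGIT* from 3.87 to 10.9, *CD276* from 299 to 930, *IDO1* from 4.23 to 63.7 and *CD80* from 42.3 to 396. These are values only, since the branches were defined from expression. TC1473 of this branch held the highest *ICOS* (133), *CD28* (76.4), *CD86* (1420) and *CD3E* (227) and the second highest *CD274* (238), *CD80* (396) and *CTLA4* (50.9), while its *PDCD1* count was 3.64.

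TC1744, highest of 30 in *PDCD1* (81.5) and *TIGIT* (40.3), had 0 *CTLA4* and 0 *CD28* and was near the median in *CD3E* (21.5). *GAL3ST2*, a close neighbour of *PDCD1* in gene order with a median of 3.42, was also highest in TC1744 (147), followed by TC538 (125). Their rho was 0.47 in the larger branch. *CD79A*, listed as a B cell marker, had a median of 12200 and a lowest value of 3410 in a table where the B cell marker *MS4A1* had a median of 1.21 and 0 counts in 7 tumors.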
